A study of Mus musculus with 8 samples.

Results

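The measure described here is the genotype by tungstate interaction in mouse pancreatic islets, that is, whether sodium tungstate in the drinking water went with a different expression change in mice lacking insulin receptor substrate 2 (Irs2-/-) than in wild-type mice. It was computed for each gene as a difference of differences on the log2 scale: the tungstate minus water difference in Irs2-/- islets, less the same difference in wild-type islets. All 8 arrays of the study enter it, 2 in each of 4 groups, and 13369 of 18193 genes named by a probe set were tested. A value below 0 means that expression was lowered more, or raised less, in Irs2-/- islets than in wild-type islets.

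The mice were male, on a C57Bl/6 background, and 13 weeks old at the end of 21 days of treatment that began at 10 weeks. The 4 groups were wild type on distilled water (WT Control), wild type on sodium tungstate (WT treated), Irs2 knockout on distilled water (Irs2-/- Control) and Irs2 knockout on sodium tungstate (Irs2-/- treated). The strength of the tungstate solution is 2 mg/ml by the design text but 2 mg/dl by the sample labels, so the dose is not settled. The labels give the genotype as Irs2 knockout and name no Cre driver or transgene. The design text speaks of independent samples without saying how many mice went into each, so a p-value reflects the variation among these samples, part of which may be technical.

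Irs2 is an adaptor that couples receptors for insulin and IGF-1 to PI3-kinase and AKT, and in beta cells it supports growth and survival. Mice without it become diabetic because beta cells fail to compensate for insulin resistance. Sodium tungstate is an inorganic salt that lowers blood glucose in diabetic rodents, and it has been studied for effects on beta cell mass and on ERK signalling. Isolated islets contain beta, alpha and delta cells, but also endothelial cells, resident macrophages, some lymphocytes and a carry-over of exocrine acinar cells.

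Irs2 itself read 7.91 and 7.73 on the WT Control arrays and 7.89 and 7.61 on the WT treated arrays. It read 4.54 and 4.89 on the Irs2-/- Control arrays and 4.78 and 4.86 on the Irs2-/- treated arrays. The genotype labels therefore hold on all 8 arrays, and the interaction of Irs2 was 0.17 ± 0.22 (SE, 2 arrays per group; limma adjusted p = 0.946). The acinar marker list, by contrast, varied widely within groups, from a mean of 8.23 to 11.31 between the WT Control arrays and from 11.05 to 12.02 between the Irs2-/- Control arrays. The islet identity of the samples is borne by Ins2, which encodes insulin and read between 14.72 and 14.75 on all 8 arrays, and by Gcg, which encodes glucagon and read between 14.15 and 14.39. With only 2 arrays in each group the precision is limited: the median SE of an interaction was 0.20 on the log2 scale, against 0.14 for tungstate in 1 genotype.

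The interaction passed the test for 3 genes, Gast, Nmb and Mfap3l, which is 0.0224% of the genes tested, and in all 3 the value lay below 0. Each was high in untreated Irs2-/- islets, fell under tungstate in that genotype, and had a low signal in both wild-type groups. Gast encodes gastrin, a stomach hormone that fetal islets also make. Nmb encodes neuromedin B, a peptide of the bombesin family, and Mfap3l encodes microfibril-associated protein 3-like, a membrane protein. The 250 bases before the start of each gene are shown because these are the genes on which the interaction rests. They come from RefSeq (GRCm38.p6) and read 5′ to 3′ on the gene's strand, at chr11:100334157-100334406 (plus strand) for Gast, chr7:80905063-80905312 (minus strand) for Nmb and chr8:60632575-60632824 (plus strand) for Mfap3l, where the most upstream of 3 listed starts was taken. Capitals mark matches on either strand to the motifs searched.
Gast: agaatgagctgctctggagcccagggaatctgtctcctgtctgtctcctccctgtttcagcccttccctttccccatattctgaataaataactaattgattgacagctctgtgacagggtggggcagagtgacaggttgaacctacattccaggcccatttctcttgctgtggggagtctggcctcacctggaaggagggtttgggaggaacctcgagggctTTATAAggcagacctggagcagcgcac
Nmb: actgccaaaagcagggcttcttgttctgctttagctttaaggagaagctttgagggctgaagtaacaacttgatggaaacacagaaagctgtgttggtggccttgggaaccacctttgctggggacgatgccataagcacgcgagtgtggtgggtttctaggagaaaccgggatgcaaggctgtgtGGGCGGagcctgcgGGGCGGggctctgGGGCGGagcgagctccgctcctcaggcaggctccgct
Mfap3l: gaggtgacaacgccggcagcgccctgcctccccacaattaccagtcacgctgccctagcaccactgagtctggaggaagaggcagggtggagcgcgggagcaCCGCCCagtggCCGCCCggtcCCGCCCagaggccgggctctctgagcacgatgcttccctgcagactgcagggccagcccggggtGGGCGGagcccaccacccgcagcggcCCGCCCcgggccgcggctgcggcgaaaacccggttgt
The Gast stretch holds TATAA, the core of a TATA box, twinned on both strands by overlap, with the forward match beginning 26 bases before the start. The stretches of Nmb and Mfap3l hold 3 and 5 matches to GGGCGG, the GC box, without that motif. Among 27025 RefSeq stretches of the same length, from the most upstream start of each gene, TATAA occurs in 23.5% and GGGCGG in 33.0%. CCAAT (in 34.5% of them), TGACGTCA (1.6%), TGANTCA (6.9%) and CACGTG (6.0%) had no match in these 3 windows. The sequences thus share no searched motif across all 3 genes, and a match is a description, not a shown binding site.

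Gast read 4.53 and 4.69 on the WT Control arrays and 4.60 and 4.72 on the WT treated arrays. In Irs2-/- islets it read 10.00 and 10.26 without tungstate and 7.85 and 7.76 with it. The Irs2-/- groups did not overlap, and the treated arrays still lay far above every wild-type array. In Irs2-/- islets Gast fell by 2.32 ± 0.13 (adjusted p = 0.00174), a 4.99-fold lower signal, while the difference in wild type was 0.05 (95% interval -0.26 to 0.35). The interaction was -2.37 ± 0.19 (adjusted p = 0.021), and the gap between the genotypes was 5.52 without tungstate and 3.15 with it. Both gaps are at best lower bounds, because the wild-type signal lay below the low-signal filter, and Gast entered the test through its Irs2-/- arrays.

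Nmb read 5.66 and 5.37 in WT Control, 5.74 and 5.64 in WT treated, 7.54 and 7.75 in Irs2-/- Control and 5.71 and 5.75 in Irs2-/- treated islets. The treated Irs2-/- arrays stood level with the highest wild-type array, and the gap between genotypes went from 2.13 to 0.04. The interaction was -2.09 ± 0.20 (adjusted p = 0.0263), made up of a 3.78-fold lower signal in Irs2-/- islets and a difference of 0.17 (95% interval -0.15 to 0.49) in wild type.

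Mfap3l read 5.68 and 5.52 in WT Control, 5.60 and 5.73 in WT treated, 8.09 and 8.01 in Irs2-/- Control and 6.21 and 6.00 in Irs2-/- treated islets. It fell 3.85-fold in Irs2-/- islets but, unlike Nmb, stayed above the wild-type arrays there, with a gap of 0.44 left of 2.45. The interaction was -2.01 ± 0.18 (adjusted p = 0.0263). The other 2 probe sets of Mfap3l, both dimmer, gave -1.22 ± 0.23 and -0.73 ± 0.30, in the same direction. Mfap3l had an adjusted p of 0.13 without both untreated first arrays, and with the mean of its probe sets it lay below the filter and was not tested. Gast and Nmb had a single probe set each.

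**Figure D1:**
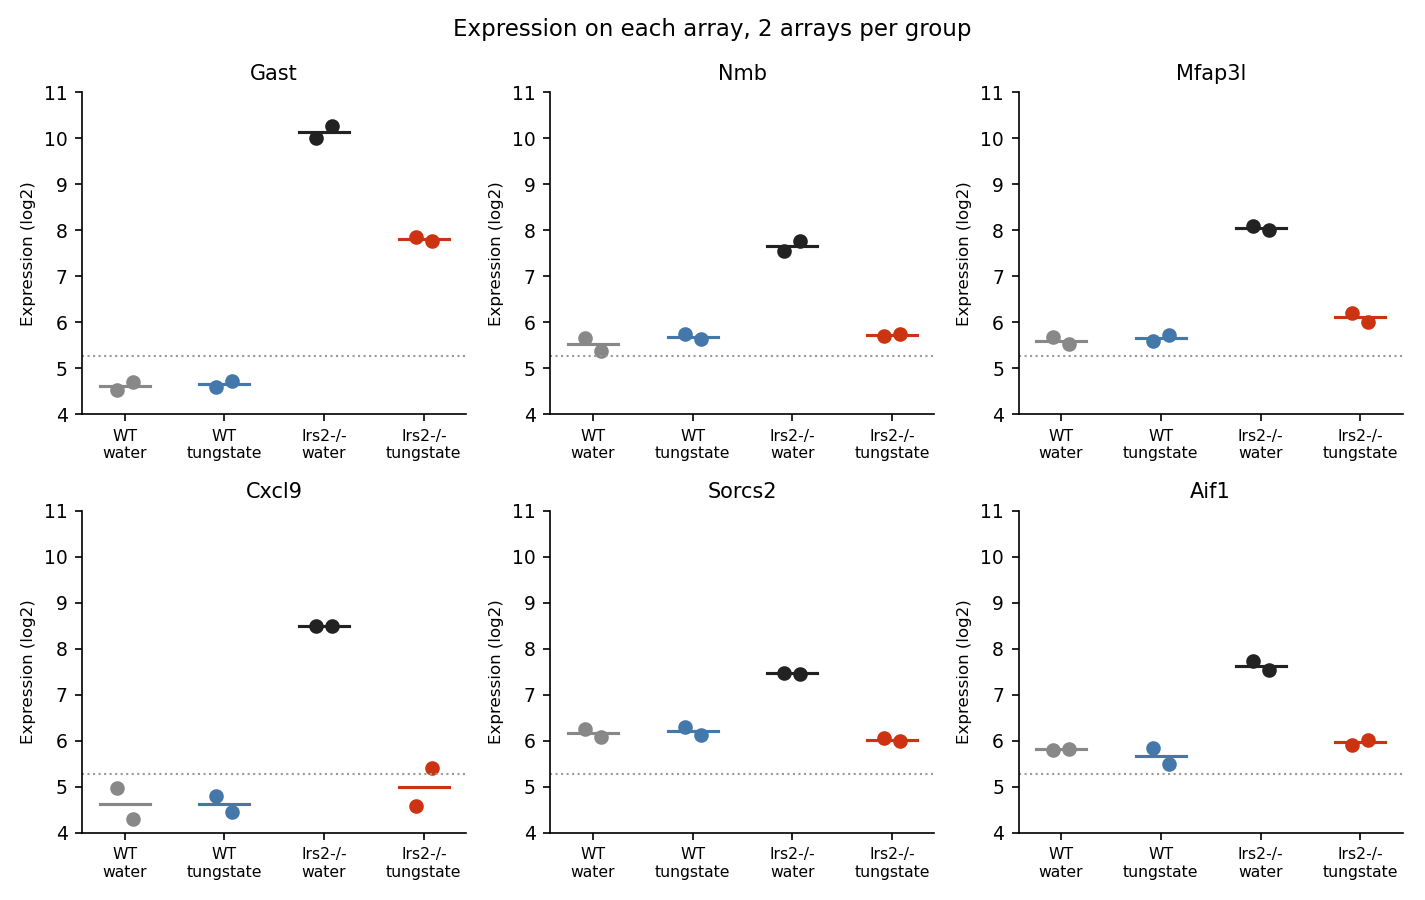
Log2 expression on each of the 8 arrays (points) with the group mean (line) for 6 genes with an interaction at an adjusted p under 0.1, of which Gast, Nmb and Mfap3l passed at 0.05. The dotted line is the low-signal filter at log2 5.27, and in each gene only the Irs2-/- water arrays, at 7.46 or above, stand clear of the wild-type arrays by more than 1 log2 unit, except for Gast, where both Irs2-/- groups do.

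In wild-type islets Gast lay below the low-signal filter of log2 5.27 on all 4 arrays, and the wild-type values of Nmb and Mfap3l lay close above it, between 5.37 and 5.74. A fall under tungstate in wild type may therefore not have been detectable for these genes. The interaction compares a fall from a high level with a low signal that may have had little room to fall. The 3 calls also needed all of the wild-type arrays and the second Irs2-/- Control array. Leaving out WT Control replicate 1 or 2, WT treated replicate 1 or 2, or Irs2-/- Control replicate 2 left 0 genes past the limma test, with between 514 and 1276 genes at an unadjusted p under 0.05, while Gast kept a value between -2.45 and -2.24. Without Irs2-/- Control replicate 1, Irs2-/- treated replicate 1 or Irs2-/- treated replicate 2, the count was 10, 12 and 5. Nmb was not among those 5, it had an adjusted p of 0.066 with quantile normalization, and it fell below the 60th percentile filter.

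Between an adjusted p of 0.05 and 0.1 lay 10 further genes, so that 13 genes (0.0972%) stood under 0.1, and all 13 had an interaction below 0. These 10 did not pass the interaction test, but each fell in Irs2-/- islets by the test in that genotype alone. Cxcl9, a chemokine induced by interferon gamma that draws T cells, had the widest difference among them. It read 4.97 and 4.29 in WT Control, 4.81 and 4.45 in WT treated, 8.49 and 8.49 in Irs2-/- Control and 4.57 and 5.41 in Irs2-/- treated islets. It fell at least 11.3-fold on the measured means in Irs2-/- islets, where the treated mean of 4.99 lay below the low-signal filter, as did every wild-type value. The fall took it to the range of the wild-type arrays on 1 array and above it on the other, and its interaction was -3.50 ± 0.43 (adjusted p = 0.092). A second, dimmer probe set of Cxcl9 gave -0.89 ± 0.24.

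Sorcs2, a sorting receptor of the VPS10 family, read 6.26 and 6.08 in WT Control, 6.31 and 6.13 in WT treated, 7.47 and 7.46 in Irs2-/- Control and 6.06 and 5.99 in Irs2-/- treated islets. The treated Irs2-/- arrays lay below all 4 wild-type arrays, and the interaction was -1.49 ± 0.17 (adjusted p = 0.0791). Aif1, which encodes the macrophage protein IBA1, read 5.79 and 5.83, then 5.85 and 5.48 in the wild-type groups, and 7.72 and 7.53, then 5.91 and 6.01 in the Irs2-/- groups, with an interaction of -1.52 ± 0.21. The values were -2.20 for Slc5a10, a sodium-coupled sugar transporter, -1.72 for Fcna, a ficolin of the lectin complement pathway, and -1.40 for Plaur, the urokinase receptor. They were -1.46 for Fxyd5, a regulator of the sodium pump, -1.40 for the SH2 domain protein Sh2d5 and -1.57 for Nrip3. Serpina1b, an alpha-1 antitrypsin gene, had -1.81, but its probe sets can take up signal from near-identical copies. The wild-type means of Slc5a10, 5.29, and of Fcna, 5.68, lay close above the low-signal filter.

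The interaction can be read from its arms. In Irs2-/- islets 66 genes (0.494%) passed the tungstate test, 63 lower and 3 higher with tungstate. In wild-type islets limma called 0 genes (0%), with a smallest adjusted p of 0.796 and 364 genes at an unadjusted p under 0.05. A call in one genotype and none in the other does not by itself show a difference, and of the 66 genes 3 passed the interaction test. For all 63 genes that fell in Irs2-/- islets the untreated Irs2-/- mean lay above the untreated wild-type mean, by a median of 1.82, and under tungstate the median gap was 0.47. High untreated Irs2-/- values helped to select these genes, only 43 of the 63 had a wild-type mean above the low-signal filter, and for the others the gap is at best a lower bound, so this tally is a description. Because the interaction and the Irs2-/- difference share 4 arrays, these values describe the same measurements from 2 sides. In wild type the median tungstate difference of the 63 genes was -0.036, against -0.027 for all genes tested. The count of 66 ranged from 16 to 265 when 1 array at a time was left out.

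Robo2, an axon guidance receptor, was 1 of the 3 genes that rose in Irs2-/- islets. It read 6.07 and 6.00 in WT Control, 6.67 and 6.92 in WT treated, 4.69 and 4.83 in Irs2-/- Control and 6.31 and 5.81 in Irs2-/- treated islets. Treated arrays lay above untreated ones in both genotypes, by 1.30 in Irs2-/- (adjusted p = 0.0328) and by 0.76 in wild type (unadjusted p = 0.0029). The interaction of Robo2 was 0.54 ± 0.25 (adjusted p = 0.789). Atf5 and Fam184b also rose in Irs2-/- islets, and differed by 0.03 and 0.15 in wild type. Their interactions were 0.80 ± 0.17 (limma adjusted p = 0.391) and 0.97 ± 0.20 (limma adjusted p = 0.376).

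**Figure D2:**
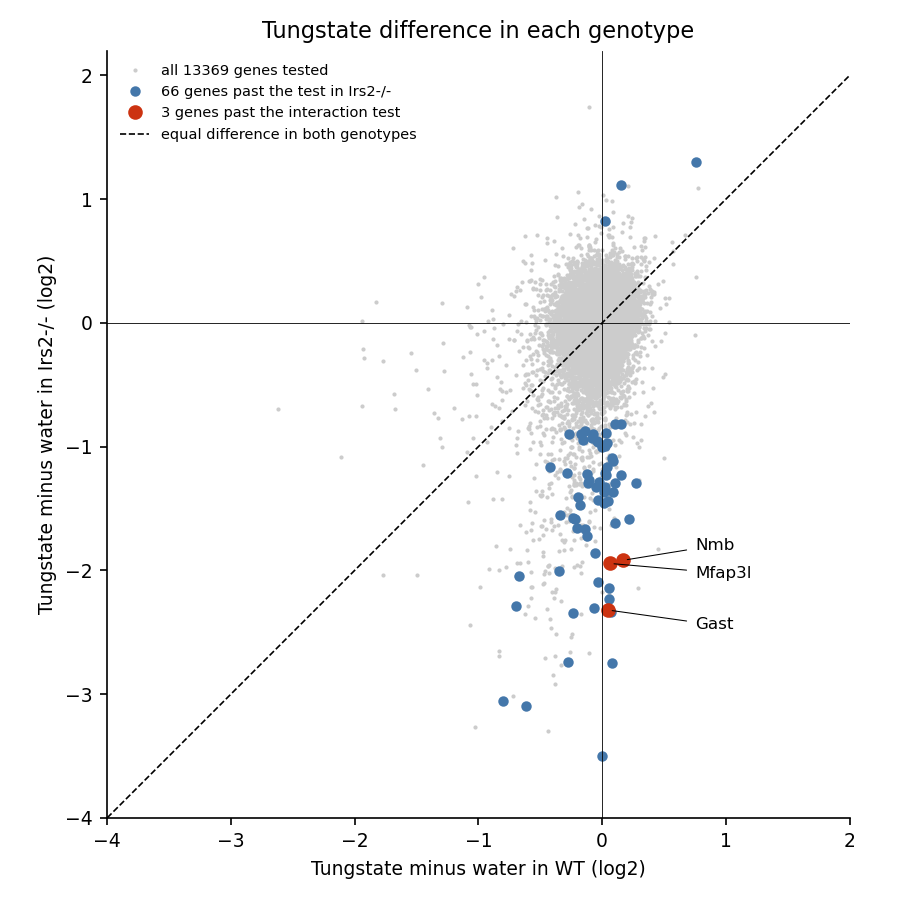
Tungstate minus water difference in wild-type islets (horizontal axis, log2) against that in Irs2-/- islets (vertical axis, log2) for all 13369 genes tested, with the 66 genes past the test in Irs2-/- islets in blue and the 3 past the interaction test in red. The vertical distance from the dashed line is the interaction. The wild-type difference lay within 0.3 of 0 for 58 of the 66 genes and for 12418 of all 13369 genes tested.

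At an unadjusted p under 0.05 the interaction was below 0 for 494 genes (3.7% of those tested) and above 0 for 368 (2.75%). At any p it lay below 0 for 6532 of the 13369 genes (48.9%). These shares are the background for the gene lists that follow, since no list member besides Gast and Nmb passed after adjustment over all genes. The 494 genes had a median difference of -0.69 in Irs2-/- islets and 0.02 in wild type, and 487 of them were higher in untreated Irs2-/- than in untreated wild-type islets. Of all 13369 genes tested, 6487 were. The 368 genes had a median of 0.32 in Irs2-/- and -0.22 in wild type, and 349 of them lay below 0 in wild type, as did 7699 of all genes tested. As the 494 and the 368 genes were chosen by their interaction, their medians and counts describe them and test nothing.

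Immune genes made up the clearest group below 0. Of 19 tested macrophage markers, 16 had an interaction below 0 at an unadjusted p under 0.05, 0 had one above 0, and all 19 values lay below 0. The median interaction of the list was -1.24, against 0.01 for all genes, and it lay between -1.32 and -1.001 with any 1 array left out, with 13 to 17 members at p under 0.05. In Irs2-/- islets 7 of the 19 fell by the adjusted test, as did 63 of all 13369 genes tested. The median over the list was -1.30 in Irs2-/- islets and -0.11 in wild type. Fewer macrophages and less RNA of these genes per cell cannot be told apart in bulk islets.

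C1qa and C1qc encode chains of C1q, the first component of complement, made by tissue macrophages. C1qc read 6.70 and 6.74 in WT Control, 6.71 and 6.69 in WT treated, 8.18 and 8.47 in Irs2-/- Control and 7.14 and 6.95 in Irs2-/- treated islets. Its wild-type groups overlapped and its Irs2-/- groups did not, and the interaction was -1.26 ± 0.19 (adjusted p = 0.125). C1qa had -1.07 ± 0.18, and the lysosomal protease gene Ctss had -1.10 ± 0.19. Lyz2, the macrophage lysozyme, read 9.14 and 7.59 in WT Control, 8.41 and 8.43 in WT treated, 11.49 and 11.54 in Irs2-/- Control and 8.93 and 9.71 in Irs2-/- treated islets. Its interaction of -2.25 ± 0.63 had an adjusted p of 0.653, its WT Control arrays standing far apart. Cd14, a lipopolysaccharide co-receptor, was the member nearest to 0, at -0.14 ± 0.25.

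Lymphocyte markers had a similar median but a much wider spread. Of 15 tested T and B lymphocyte markers, 3 had an interaction below 0 at p under 0.05 and 0 above it, with a median of -1.19 that ranged from -2.54 to -0.27 when 1 array was left out. The count of 3 was 9 without WT Control replicate 1, 6 without both untreated first arrays, 1 without Irs2-/- Control replicate 1 or Irs2-/- treated replicate 1, and 0 (limma, unadjusted p) without WT Control replicate 2 or WT treated replicate 1. Cd3g, the gene of a CD3 chain in the T cell receptor complex, had -2.24 ± 0.73 (adjusted p = 0.695). Ms4a1, which encodes the B cell antigen CD20, read 8.54 and 4.55 in WT Control, 7.48 and 3.95 in WT treated, 10.19 and 8.93 in Irs2-/- Control and 5.85 and 7.89 in Irs2-/- treated islets. Arrays of a single wild-type group thus differed by more than 3 log2 units, and its interaction was -1.86 with a 95% interval of -6.68 to 2.96.

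Genes of interferon response and antigen presentation followed the same direction. Of 19 tested, 7 had an interaction below 0 at p under 0.05 and 0 above it, and the median was -0.72, with a range of -0.93 to -0.46 over single arrays left out. Psmb8, a subunit of the immunoproteasome, had -1.12 ± 0.32, and the MHC class II chain gene H2-Eb1 had -1.29 ± 0.41. The count of 7 was 1 without WT treated replicate 1, 2 without Irs2-/- Control replicate 1 or Irs2-/- treated replicate 1, 3 without WT Control replicate 2, 11 without WT Control replicate 1 and 12 without Irs2-/- Control replicate 2.

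Among chemokines, cytokines and acute phase genes, 5 of 17 had an interaction below 0 at p under 0.05 and 0 above it, with a median of -0.54. Ccl5, a T cell chemoattractant, read 6.92 and 5.76 in WT Control, 5.85 and 5.61 in WT treated, 10.05 and 9.33 in Irs2-/- Control and 6.60 and 6.58 in Irs2-/- treated islets. It fell 8.57-fold in Irs2-/- islets (adjusted p = 0.0185), and its interaction was -2.49 ± 0.51 (adjusted p = 0.385). Ccl8, a monocyte chemoattractant, had -2.11 ± 0.45, and the acute phase gene Saa3 had -2.28 ± 0.52. The count of 5 was 11 without Irs2-/- Control replicate 2, and the median ran from -1.17 without that array to -0.20 without Irs2-/- Control replicate 1. It was -0.996 without WT Control replicate 1 and -0.83 without Irs2-/- treated replicate 1.

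**Figure D3:**
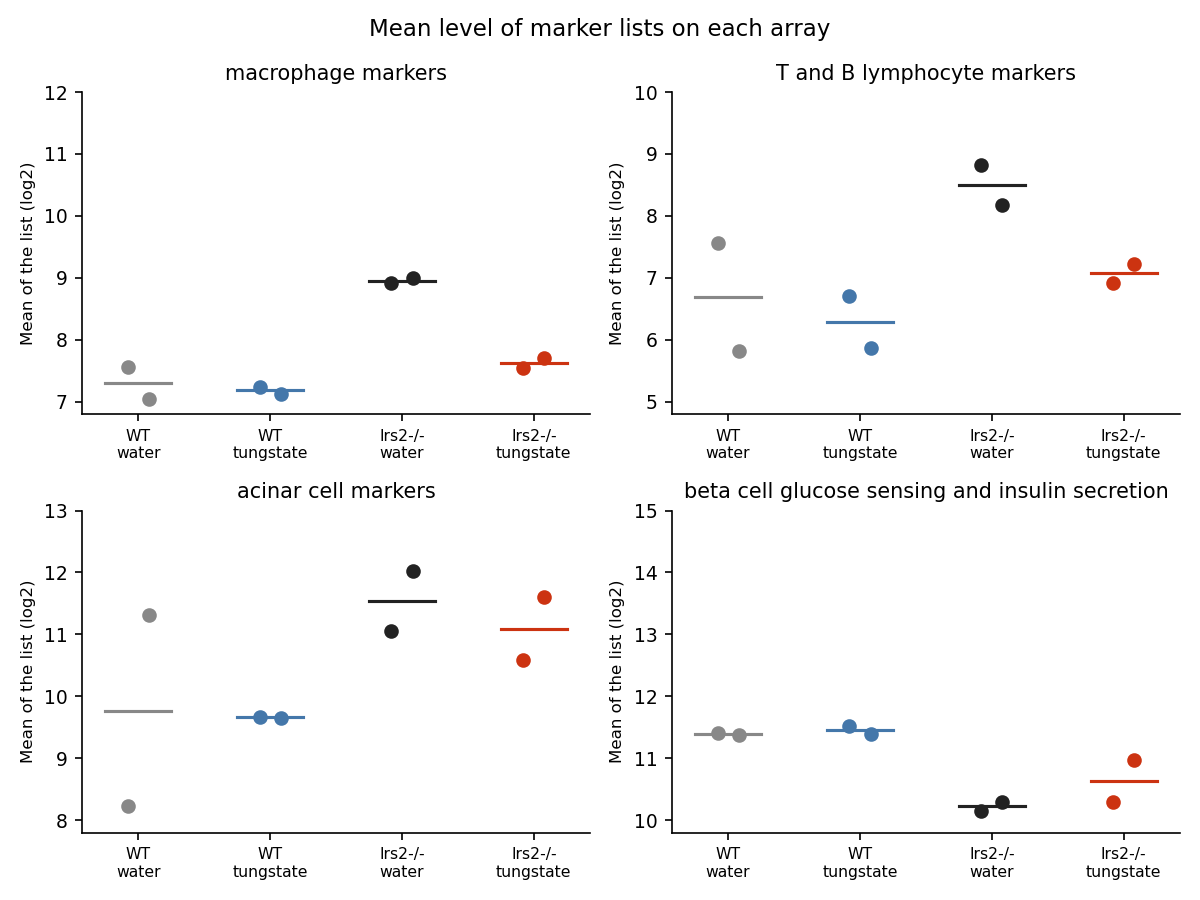
Mean log2 level of 4 gene lists on each array (points) with the group mean (line). Macrophage markers stood at 8.92 and 8.99 on the Irs2-/- water arrays and at 7.55 and 7.72 on the Irs2-/- tungstate arrays, while acinar markers differed by more within the WT water group, 8.23 and 11.31, than between the groups' means.

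Cell cycle genes also lay mostly below 0. Of 30 tested, 9 had an interaction below 0 at p under 0.05 and 1 above it, and 26 values lay below 0, with a median of -0.45, which was -0.26 without Irs2-/- Control replicate 1 and -0.70 without Irs2-/- Control replicate 2. Mcm5, a subunit of the replicative helicase, read 6.54 and 6.02 in WT Control, 6.17 and 6.04 in WT treated, 8.25 and 7.38 in Irs2-/- Control and 6.24 and 6.12 in Irs2-/- treated islets. The treated Irs2-/- arrays were at the wild-type level, and the interaction was -1.46 ± 0.39 (adjusted p = 0.615). Mki67, the proliferation marker Ki-67, had -1.58 ± 0.62, and the G1 kinase gene Cdk6 had -0.94 ± 0.24. Ccnd2, the main D-type cyclin of beta cells, was the member above 0 at p under 0.05, with 0.47 ± 0.16. The count of 9 was 2 without WT treated replicate 1 or Irs2-/- treated replicate 1, 3 without WT Control replicate 2 or Irs2-/- Control replicate 1, and 21 without Irs2-/- Control replicate 2. In Irs2-/- islets the group means of the cell cycle, macrophage and lymphocyte lists were all lower with tungstate. On the Irs2-/- Control arrays the cell cycle mean was 7.97 and 7.41 and the lymphocyte mean 8.83 and 8.18. The macrophage mean there was 8.92 and 8.99. The part of macrophages and lymphocytes in the cell cycle values was not tested.

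The peptide hormone list held Gast and Nmb but did not lie below 0 as a whole. Of 19 tested precursors, 3 had an interaction below 0 at p under 0.05, 10 values lay above 0, and the median was 0.01, with a range of -0.31 to 0.23 over single arrays left out. The third was Vgf, a granule protein cleaved to several peptides. It read 7.60 and 7.68 in WT Control, 7.58 and 7.75 in WT treated, 10.87 and 10.87 in Irs2-/- Control and 9.77 and 9.33 in Irs2-/- treated islets. Vgf fell by 1.32 ± 0.16 in Irs2-/- islets (adjusted p = 0.0185) and kept a gap of 1.88 over wild type, with an interaction of -1.35 ± 0.22 (adjusted p = 0.213). The main islet hormones gave intervals that included 0. The interaction was 0.02 (95% interval -0.31 to 0.35) for Ins2, 0.14 (-0.25 to 0.53) for Gcg and 0.22 (-0.21 to 0.64) for Sst, the gene of somatostatin. Ins2 stood at the highest values these arrays gave, so that a difference in it may not be detectable. Gcg lay close below those values, and the same may hold for it.

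Genes of glucose sensing and insulin secretion in beta cells lay on the other side of 0, without passing the test. Of 20 tested, 2 had an interaction above 0 at p under 0.05 and 0 below it, with a median of 0.34. Slc2a2, the glucose transporter GLUT2, read 13.24 and 12.97 in WT Control, 13.26 and 13.00 in WT treated, 10.58 and 11.03 in Irs2-/- Control and 11.17 and 12.43 in Irs2-/- treated islets. The Irs2-/- groups did not overlap, but the treated arrays stood far apart, and the interaction was 0.97 ± 0.51 (95% interval -0.22 to 2.16, adjusted p = 0.816). Ucn3, a hormone that marks mature beta cells, read 9.43 and 10.03 in Irs2-/- Control and 10.20 and 11.22 in Irs2-/- treated islets, against 11.78 to 11.97 in wild type, with an interaction of 0.90 ± 0.45. The 2 members under 0.05 were Slc30a8, the zinc transporter of insulin granules, at 0.81 ± 0.31, and the phosphatase inhibitor gene Ppp1r1a, at 0.69 ± 0.28.

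The beta cell values depended on which treated Irs2-/- array was used. The median of the list was 0.06 to 0.59 over single arrays left out. Without Irs2-/- treated replicate 1, 11 of the 20 genes had an interaction above 0 at p under 0.05, and without Irs2-/- treated replicate 2 limma gave 0 at that level, as it did without Irs2-/- Control replicate 1 or either WT treated array. On average over the list the Irs2-/- arrays read 10.15 and 10.30 without tungstate and 10.30 and 10.97 with it, and the wild-type arrays lay between 11.38 and 11.52.

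Islet transcription factors showed a like pattern, with 3 of 15 above 0 at p under 0.05, 0 below it and a median of 0.28. Insm1, a zinc finger factor of endocrine cells, had 0.92 ± 0.35 and Neurod1, an activator of the insulin gene, had 0.56 ± 0.21. Insm1 read 10.60 and 10.79 in WT Control, 10.33 and 9.91 in WT treated, 9.36 and 9.69 in Irs2-/- Control and 9.53 and 10.21 in Irs2-/- treated islets, so that more of its interaction came from lower wild-type values under tungstate, -0.57, than from the Irs2-/- difference of 0.35. For the beta cell regulators Pdx1 and Nkx6-1 the intervals were -0.07 to 0.97 and -0.24 to 1.01. Without both untreated first arrays, or without Irs2-/- Control replicate 1, WT treated replicate 2 or Irs2-/- treated replicate 2, limma gave 0 members at an unadjusted p under 0.05, and without Irs2-/- Control replicate 2 or Irs2-/- treated replicate 1 it gave 6.

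Genes that mature beta cells keep low, or that mark dedifferentiated ones, had 4 of 18 members below 0 at p under 0.05 and 0 above it, with a median of -0.25. The median was -0.60 without Irs2-/- treated replicate 1, -0.55 without WT Control replicate 1, -0.42 without Irs2-/- Control replicate 2, -0.056 without Irs2-/- treated replicate 2 and -0.023 without WT Control replicate 2. Gast and Slc5a10 are themselves on this list. Hk2, a low-Km hexokinase, read 5.27 and 5.29, then 5.18 and 5.28 in the wild-type groups, and 6.07 and 5.95, then 5.39 and 5.33 in the Irs2-/- groups, with an interaction of -0.60 ± 0.15 (adjusted p = 0.557). Fbp2, a fructose bisphosphatase, had -1.26 ± 0.37. Aldh1a3, an enzyme of retinoic acid synthesis and a common marker of failing beta cells, read 9.10 and 8.15 in Irs2-/- Control and 8.73 and 7.21 in Irs2-/- treated islets. These groups overlapped, and its interaction was -0.85 with an interval of -2.64 to 0.94.

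Glycolysis and pyruvate entry had members on both sides of 0, 4 of 20 below and 2 above at p under 0.05, with a median of -0.12. Pfkfb3, which makes the activator of phosphofructokinase, read 7.74 and 7.13 in Irs2-/- Control and 5.79 and 5.64 in Irs2-/- treated islets, against 4.90 to 5.60 in wild type. It fell 3.30-fold in Irs2-/- islets (adjusted p = 0.0405), and its interaction was -1.60 ± 0.36 (adjusted p = 0.455). Pdk1, a kinase that restrains pyruvate dehydrogenase, had -0.72 ± 0.20. Its relative Pdk4 had 0.99 ± 0.36, which came from wild type, where it read 7.65 and 7.18 without and 6.76 and 6.30 with tungstate.

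**Figure D4:**
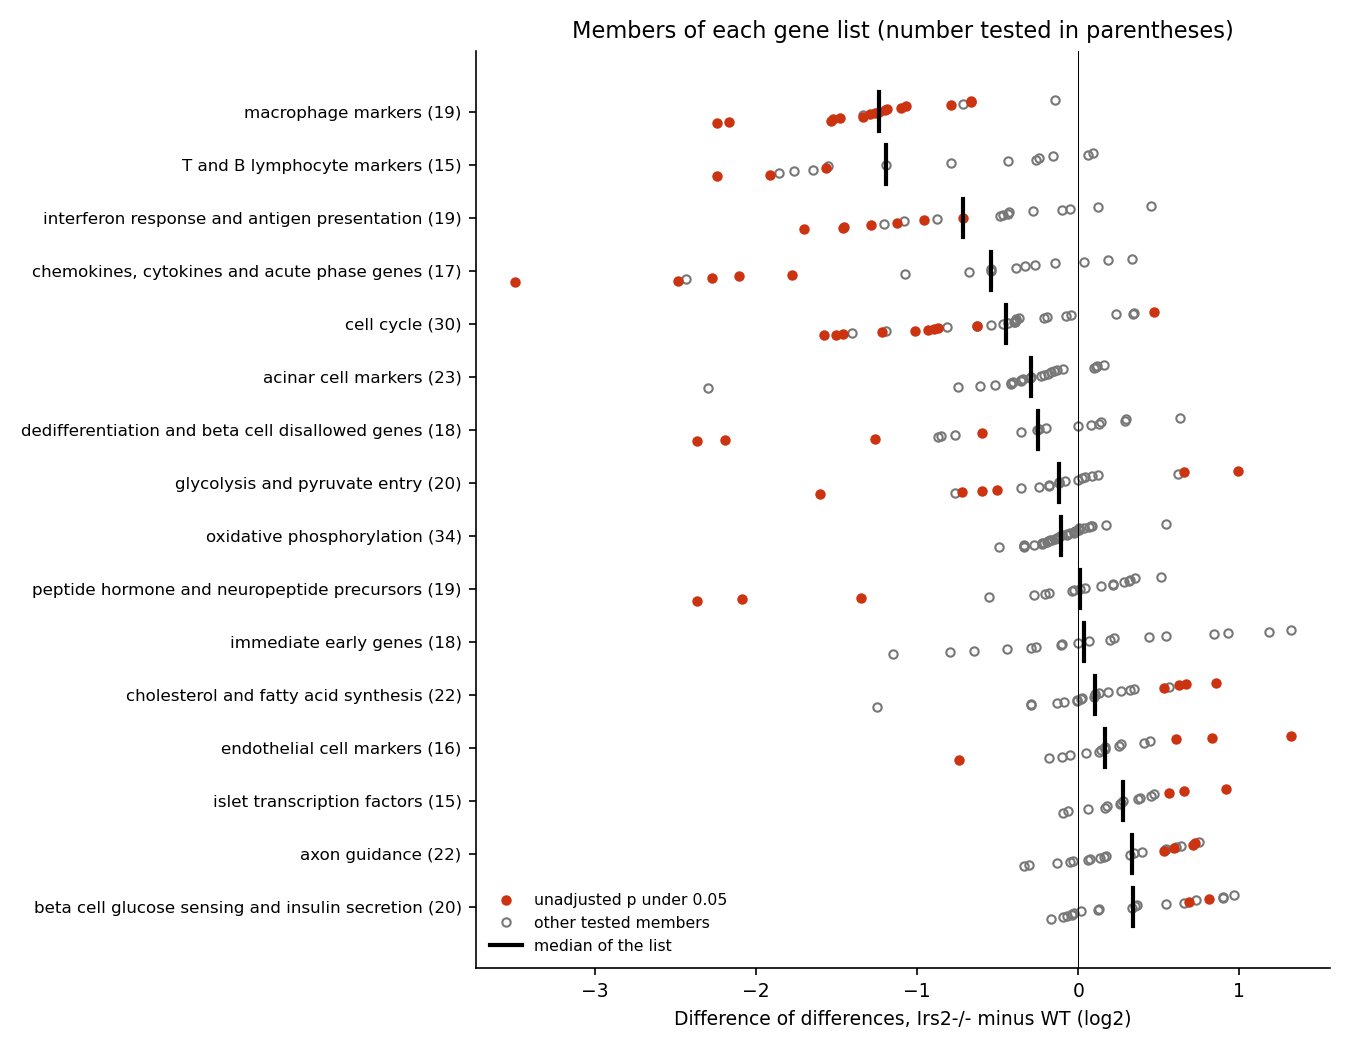
Interaction (log2) of the tested members of 16 gene lists, with members at an unadjusted p under 0.05 filled and the median of each list as a bar. All 19 macrophage markers lie below 0 with a median of -1.24, and the beta cell list lies mostly above 0 with a median of 0.34.

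In the direction above 0 no gene passed. The widest differences at an unadjusted p under 0.01 were those of Fmn2, Sult1d1, F3, 5330434G04Rik and Cdh7. Fmn2, an actin-nucleating formin, read 10.40 and 10.15 in WT Control, 10.27 and 9.88 in WT treated, 8.88 and 8.95 in Irs2-/- Control and 9.69 and 10.25 in Irs2-/- treated islets. Of the treated Irs2-/- arrays 1 lay in the wild-type range and 1 just below it, with an interaction of 1.26 ± 0.29 (adjusted p = 0.465), and the other 2 probe sets gave 0.95 ± 0.33 and 0.72 ± 0.38. Sult1d1, a sulfotransferase, had 1.13 ± 0.29 and differed little between untreated genotypes, by 0.02. F3, tissue factor, had 1.12 ± 0.29, with wild-type and Irs2-/- differences of -0.57 and 0.55. The cadherin gene Cdh7 had 1.02 ± 0.22, and its dimmer probe sets gave smaller values, 0.63 ± 0.23 and 0.41 ± 0.20.

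The smallest adjusted p above 0 was that of Scd2, a fatty acid desaturase. Scd2 read 10.99 and 10.98 in WT Control, 10.75 and 10.59 in WT treated, 9.38 and 9.43 in Irs2-/- Control and 9.99 and 9.91 in Irs2-/- treated islets. The groups of each genotype did not overlap and moved in opposite directions, by -0.32 in wild type and 0.54 in Irs2-/-, with an interaction of 0.86 ± 0.16 (adjusted p = 0.315). In the list of cholesterol and fatty acid synthesis 4 of 22 lay above 0 at p under 0.05 and 0 below it, with a median of 0.11. Another of them, the sterol oxidase gene Msmo1, had 0.67 ± 0.21. The count of 4 was 2 without WT Control replicate 1 or WT treated replicate 2.

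Axon guidance genes had 4 of 22 above 0 at p under 0.05, 0 below it and a median of 0.33, which ranged from 0.21 to 0.39 over single arrays left out. Nrp1, a co-receptor for semaphorins and VEGF, read 9.58 and 9.54 in WT Control, 9.14 and 9.15 in WT treated, 9.36 and 9.47 in Irs2-/- Control and 9.79 and 9.66 in Irs2-/- treated islets. Its treated arrays lay lower in wild type and higher in Irs2-/-, with no overlap in either, and the interaction was 0.73 ± 0.16 (adjusted p = 0.398). Nrp1 is also made by endothelial cells, whose marker list had 3 of 16 members above 0 and 1 below at p under 0.05, with a median of 0.17. The endothelial receptor gene Tek had 0.83 ± 0.26 and von Willebrand factor, Vwf, had 1.32 ± 0.46. The axon guidance count of 4 was 2 without WT Control replicate 1 or WT treated replicate 2 and 7 without Irs2-/- treated replicate 2, and the endothelial count of 3 was 7 without Irs2-/- treated replicate 2, 1 without Irs2-/- Control replicate 1 and 2 without any 1 of the wild-type arrays or Irs2-/- treated replicate 1. The part of endothelial cells in the Nrp1 value was not tested.

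Signalling genes tied to tungstate and to Irs2 were described by 3 lists. Insulin and IGF signalling had 0 of 17 members at an unadjusted p under 0.05 in either direction by limma. Of 14 feedback genes of the ERK pathway, 2 lay below 0 at p under 0.05 and 0 above it. That count was 5 without Irs2-/- treated replicate 1 and 0 (limma, unadjusted p) without WT treated replicate 1 or without both untreated first arrays, and it was 1 to 3 without each of the other arrays. The median of the list ran from -0.19 to 0.13. Dusp4, an ERK phosphatase, had -0.97 ± 0.31 (adjusted p = 0.692) and Dusp6, another, had -0.61 (95% interval -1.25 to 0.03). The Dusp6 difference was -1.06 in Irs2-/- and -0.44 in wild type, and passed the test in neither. The immediate early genes had 0 of 18 at that level, but the count moved with single arrays: 9 lay above 0 without Irs2-/- Control replicate 1, 3 lay below 0 without Irs2-/- Control replicate 2, 1 lay below 0 without Irs2-/- treated replicate 1, and 7 lay above 0 without both untreated first arrays. The median of the list was 0.76 without Irs2-/- Control replicate 1, -0.51 without replicate 2 of that group and 0.60 without both untreated first arrays, against 0.035 with all arrays. Egr1 read 12.00 and 9.53 on the Irs2-/- Control arrays alone, and its interval ran from -1.03 to 3.67. For Fos it ran from -1.003 to 2.69.

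Metallothioneins bind zinc and other metals and are induced by them. Mt1 read 12.96 and 12.43 in WT Control, 12.43 and 12.88 in WT treated, 11.36 and 11.44 in Irs2-/- Control and 11.96 and 12.03 in Irs2-/- treated islets. The wild-type groups overlapped and the Irs2-/- groups did not, with an interaction of 0.62 ± 0.29 (adjusted p = 0.789). Mt2 had 0.71 ± 0.35, and Mt3, the brain-type metallothionein, had -0.76 ± 0.21.

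For Csn3, Cidea, Sorcs1 and Ptger3, the interaction was wide but did not pass, and the treated Irs2-/- arrays stood far apart. The wild-type means of these 4 genes lay below the low-signal filter, so they entered the test through their Irs2-/- arrays, and their gaps of 4.19 to 5.69 between the untreated genotypes are at best lower bounds. Csn3, kappa-casein, a milk protein gene, read 4.86 to 4.99 on the 4 wild-type arrays, 10.52 and 10.62 in Irs2-/- Control and 8.56 and 7.08 in Irs2-/- treated islets. It fell in Irs2-/- islets (adjusted p = 0.0351), and its interaction was -2.83 ± 0.55 (adjusted p = 0.345). A second probe set of Csn3 showed neither the high Irs2-/- values nor the fall. It read 3.87 to 4.23 over all 8 arrays, below the low-signal filter, with an interaction of -0.07 ± 0.20. Cidea, a lipid droplet protein, read 9.46 and 9.76, then 8.01 and 5.86 in the Irs2-/- groups, with -2.57 ± 0.79. Sorcs1, a relative of Sorcs2 linked to insulin granules, had -2.46 ± 0.59. Ptger3, a receptor for prostaglandin E2, had -2.25 ± 0.55, with a wild-type difference of -0.80 (95% interval -1.71 to 0.10). Bcl6, a transcriptional repressor, had -1.47 ± 0.29, its treated Irs2-/- arrays lying below all wild-type arrays. Txnip, a glucose-induced regulator of thioredoxin, had -0.70, with an interval of -1.67 to 0.27.

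**Figure D5:**
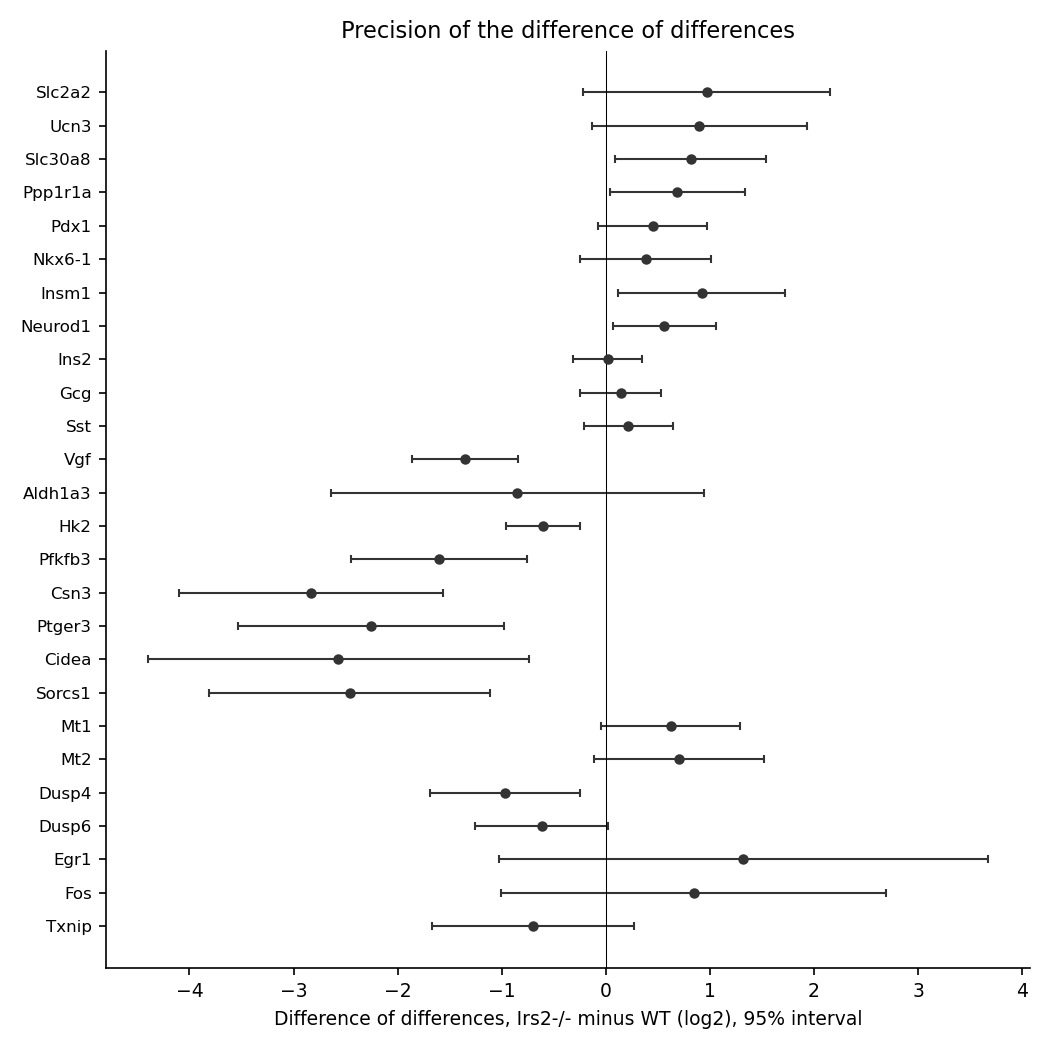
Interaction (log2, points) with its 95% interval (bars) for 26 genes of islet function, stress and signalling. The interval of Ins2 spans -0.31 to 0.35, while that of Egr1 spans -1.03 to 3.67, and none of these genes passed the interaction test after adjustment.

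For the other lists, limma gave 0 of 34 genes of oxidative phosphorylation at an unadjusted p under 0.05 (median -0.11) and 0 of 19 ribosomal protein genes (-0.084). It gave 0 of 23 fibroblast and stellate cell markers (median 0.30), but 8 above 0 without WT Control replicate 2 (median 0.60), 5 above 0 with the acinar covariate and a median of -0.003 without WT Control replicate 1. The unfolded protein and integrated stress response had 1 of 28 below 0 (median -0.10), which was 5 without Irs2-/- Control replicate 2, while the median turned to 0.07 without Irs2-/- Control replicate 1. Apoptosis regulators had 1 of 20 below 0 (-0.14), which was 6 without Irs2-/- Control replicate 2 (-0.31) and 3 without WT Control replicate 1. Acinar markers had 0 of 23 at that level, but 17 below 0 without WT Control replicate 2 and 8 above 0 without WT Control replicate 1, and 6 above 0 without both untreated first arrays. Their median of -0.29 ranged from -1.998 to 1.39 when single arrays were left out.

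Against the background of 3.7% below 0 and 2.75% above 0, a few short lists had larger shares from 2 or 3 genes each. Duct cell markers had 2 of 11 below 0 (18.2%), a count that limma gave as 0 at that unadjusted p without WT Control replicate 2, either WT treated array, Irs2-/- Control replicate 2 or Irs2-/- treated replicate 2. Genes of fatty acid oxidation had 2 of 17 below 0 (11.8%). Amino acid transporter, GABA and serotonin genes had 3 of 17 above 0 (17.6%) and 1 below, and 0 above without both untreated first arrays. Of 25 exocytosis and granule genes 2 lay below 0 and 1 above, while potassium, calcium and sodium channels had 1 of 20 above 0 and antioxidant and glutathione genes 1 of 23. Probe sets for 18S ribosomal RNA, a control on the array, had a difference of differences of 0.64. The 3' minus 5' control had one of 0.085 for Gapdh and 0.19 for actin.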

How the data were processed

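Total RNA was hybridised to Affymetrix arrays. The authors deposited log2 expression values per probe set, which they made by RMA (affy package, R 2.7.0) per the submitters' processing notes. Raw array files were not used here. The platform annotation names 1 gene for 34945 of the 45037 probe sets that are not among the 64 controls. For each of 18193 genes the brightest such probe set (by mean of all 8 arrays) was used, and 4824 genes with a mean below the 40th percentile (log2 5.27) were dropped, which left 13369.

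Group means were fitted in limma 3.58.1 (R 4.3.3), with moderated variances (4 residual, 3.89 prior degrees of freedom). Contrasts were the interaction and tungstate in each genotype, with Benjamini-Hochberg adjustment over all genes and a threshold of 0.05. The workflow was tested on simulated data.

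The comparison, its members and the 36 gene lists were chosen with earlier results of these data known. Genes were named by a rule: Irs2, up to 15 genes per direction past the interaction test, filled to 5 with the widest differences at an unadjusted p under 0.01, from each list the 4 or fewer with the lowest p, and 22 fixed genes. Sorcs2, Plaur, Fcna, Serpina1b, Fxyd5, Sh2d5, Nrip3, Lyz2, Cd14, Ms4a1, Pdk4, Mki67, Robo2, Atf5 and Fam184b do not come from this rule. They were picked with their values in view. The red blood cell list had no tested member. Alternatives covered filters, moderation, array weights, scaling, probe set choice, the acinar level as covariate, the replicate number as a block, thresholds and each array left out. Same-numbered arrays deviated together in 3 of 6 pairs (correlation over 0.1), with correlations from -0.066 to 0.42 over the 6 pairs. The numbers were not taken to pair samples, and results with the replicate block are given among the alternatives.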

Additional observations from a re-analysis of the deposited data

Results flagged for a closer look

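The tungstate difference itself differed between the genotypes, by the interaction test, for 3 genes. The difference in Irs2-/- less that in wild type was -2.37 for Gast, -2.01 for Mfap3l and -2.09 for Nmb (log2). In each the Irs2-/- arrays moved down by 1.92 or more, and the wild-type difference lay between 0.05 and 0.17.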

How the results depend on the processing

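The interaction count of 3 became 0 with all probe sets tested (27022, smallest adjusted p 0.0579, 1521 at an unadjusted p under 0.05), 13 at an adjusted p under 0.1, 6 without both untreated first arrays (chosen after seeing the data), and 0 to 12 with single arrays left out. It was 2 to 4 under the other alternatives, and 3 with the replicate block, where Slc5a10 replaced Nmb. The Irs2-/- count of 66 became 34 (60th percentile filter), 27 (array weights), 29 (all probe sets), 176 (acinar level as covariate), 153 (adjusted p under 0.1), 19 (only the 4 arrays compared), 31 (without both untreated first arrays) and 16 to 265 (single arrays left out), and was 82 with the replicate block. The wild-type count of 0 became 9 with the acinar covariate and 0 to 9 with single arrays left out. The cause of these shifts was not tested. Gast ranged from -2.50 to -2.23, Nmb from -2.34 to -1.94 and Mfap3l from -2.11 to -1.90. Signs turned, over single arrays left out, for Ms4a1 (-3.86 to 0.14), Fos (-0.14 to 1.83), Cd14 (-0.39 to 0.11) and Irs2 (-0.0049 to 0.35), and for Irs2 without both untreated first arrays (-0.096). Low signal in wild type limits the genes whose wild-type mean lay below the filter (Gast, Cxcl9, Csn3, Cidea, Sorcs1, Ptger3, Serpina1b, Ccl8, Cd3g, Pfkfb3, Hk2 and Vwf). The same holds, close above the filter, for Slc5a10, Fcna, Nmb and Mfap3l. Nmb had an adjusted p of 0.062 with the replicate block.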
